A study of Mus musculus with 5 samples.

Results

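Hox genes encode homeodomain transcription factors whose expression marks position along the body axis, and their RNA was measured here in dorsal pancreatic buds of Ptf1a null and Ptf1a heterozygote mouse embryos. Members were all probe sets annotated to exactly 1 gene named Hox followed by a cluster letter (a to d) and a paralogue number from 1 to 13, with antisense transcripts left out. That gave 48 probe sets of 33 genes, among 18193 genes measured on the array. Where a gene had several, the probe set of highest mean signal stood for it.

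The study compared null mutant buds (3 arrays) with heterozygous buds (2 arrays), both of strain C57BL/6J, from matings of Ptf1a heterozygotes, at embryonic stage E10.5. Both genotypes therefore carry the mutant allele, but what the mutant allele lacks of Ptf1a is not stated in the labels. Each array received RNA from a pool of 3 buds, from which mesenchyme had been removed by dissection, after 2 rounds of linear amplification from the poly(A) tail. The litters behind the pools are not named in the labels. A p-value here sets the genotype difference against the spread between pools only. For that spread, limma draws each probe set's variance towards that of all probe sets.

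In mammals the Hox genes lie in 4 clusters, and within a cluster genes of low paralogue number are generally activated earlier and more anteriorly than genes of high number. Genes of the same number in different clusters are paralogues and often act redundantly. The pancreatic bud arises from posterior foregut. In mouse, Hox6 genes are known from pancreatic mesoderm rather than endoderm, where they are needed for endocrine differentiation. Hox proteins commonly bind DNA together with TALE homeodomain cofactors of the Pbx, Meis and Pknox families. The genes are grouped below as anterior (paralogue groups 1 to 3, 7 genes), central (groups 4 to 8, 12 genes) and posterior (groups 9 to 13, 14 genes).

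Signal is given as log2 intensity after quantile normalisation. Background was taken on each array as the 95th percentile over the 27 Bacillus subtilis control probe sets (3.03 to 3.29 by array). Median deposited intensity was 13.7 to 16.4 on null arrays and 14.4 to 17.5 on heterozygote arrays, and 60.9% to 65.2% of probe sets lay above background on each array. Between arrays, signals correlated across probe sets at 0.849 to 0.854 for pairs of the same genotype and at 0.838 to 0.862 for pairs of different genotype. Ptf1a itself had log2 signals of 5.21, 6.07 and 5.00 in null buds, against 7.10 and 7.33 in heterozygote buds. The genotypes did not overlap, but the difference of -1.79 (SE 0.47) did not pass adjustment over all probe sets (limma adjusted p = 0.651). All 11 measured markers of bud epithelium, among them Pdx1, Cdh1 and Epcam, were above background on all 5 arrays.

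Promoter sequence of 19 of the 33 genes was found in the RefSeq table (GRCm38.p6), and 3 windows are shown: both that hold a match to the motif searched, and, as an example without one, that of Hoxd13. Each holds the 250 bases before the gene's start. Capitals mark matches to TGATNNAT, a form of the bipartite site that Pbx and anterior Hox proteins bind together, searched on both strands. The match before Hoxb1 lies in the region known for binding of Hoxb1 with Pbx at its own promoter in the mouse hindbrain.
Hoxb1 chr11:96365508-96365757 (+ strand): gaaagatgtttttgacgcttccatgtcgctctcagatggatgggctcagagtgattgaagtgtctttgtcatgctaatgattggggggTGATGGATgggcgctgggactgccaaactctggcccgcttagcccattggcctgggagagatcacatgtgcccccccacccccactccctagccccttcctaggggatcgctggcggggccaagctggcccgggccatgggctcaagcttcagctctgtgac
Hoxa2 chr6:52164832-52165081 (- strand): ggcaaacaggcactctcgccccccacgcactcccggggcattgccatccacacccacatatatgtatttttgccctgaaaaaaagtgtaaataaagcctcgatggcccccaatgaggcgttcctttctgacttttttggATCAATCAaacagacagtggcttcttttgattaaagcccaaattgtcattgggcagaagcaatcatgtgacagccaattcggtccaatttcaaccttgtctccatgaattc
Hoxd13 chr2:74667975-74668224 (+ strand): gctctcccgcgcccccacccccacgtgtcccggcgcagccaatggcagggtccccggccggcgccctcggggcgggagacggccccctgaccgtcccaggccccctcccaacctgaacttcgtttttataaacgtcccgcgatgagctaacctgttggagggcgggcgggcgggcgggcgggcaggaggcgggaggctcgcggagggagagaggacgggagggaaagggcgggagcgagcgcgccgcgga
Only Hoxb1 and Hoxa2 of the 19 had a match, against 7.91% of 27025 promoter windows of the same length. Signal was above background on 4 arrays for Hoxb1 and on all 5 for Hoxa2. Matches and CpG counts did not sort the genes by detection. Hoxb4, Hoxc4, Hoxa5 and Hoxd8 had no match and were above background on all 5 arrays. Hoxd13, the most posterior gene of its cluster, held 31 CpG dinucleotides and was above background nowhere, but Hoxa5 held 28 and was above it on 5 arrays, Hoxa13 held 35 with signal on 3, and Hoxd11 held 2 with signal on none. CpG counts over the windows had a median of 8 for the 5 Hox genes above background on all arrays, 12.5 for the 14 others and 6 for all promoters. For the sites that the Ptf1a complex recognises, the E-box CANNTG was present in 14 of 19 windows (73.7%, against 66% of all), and the Rbpj core TGGGAA in 3 of 19 (15.8%, against 21.5%). These matches describe the letters of the windows and no binding was measured.

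Signal was found mainly in genes of paralogue groups 2 to 6 and was near background in groups 9 to 13. Of the 33 genes, 11 (33.3%) were above background on all 5 arrays, against 57% of all 18193 genes, and 10 (30.3%) were above it on no array, against 13.7% of all genes. The 11 comprised 3 of 7 anterior genes, 8 of 12 central genes and 0 of 14 posterior genes. Both genes of group 2, all 3 of group 4 and all 3 of group 5 were above background throughout. In groups 1, 7 and 9 to 13, no gene was above it on all arrays. The pattern ran through the clusters: the genes above background on every array were Hoxa2, Hoxa4 and Hoxa5, Hoxb2 to Hoxb6, Hoxc4 and Hoxc5, and Hoxd8. Hoxd8 stood apart as the only Hoxd gene among them. Signals of different probe sets depend on their affinity, so these are counts of detection and not a ranking of transcript amounts. In pooled tissue, fewer expressing cells and less RNA per cell cannot be told apart.

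**Figure D1:**
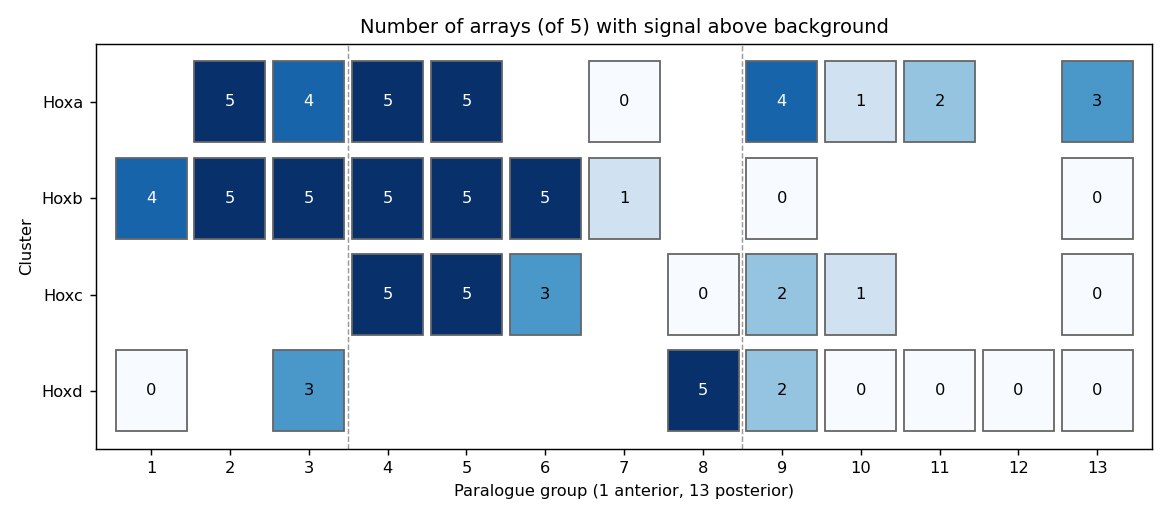
Number of arrays, of 5, on which each measured Hox gene lay above that array's background level, with clusters in rows, paralogue groups in columns and dashed lines between the anterior, central and posterior classes. Genes at 5 lie in groups 2 to 6 and at Hoxd8, and no posterior gene reaches 5.

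Among the anterior genes, Hoxb2, a hindbrain segment gene, was the steadiest. Its signals were 5.84, 5.96 and 6.22 in null buds, against 6.34 and 6.23 in heterozygote buds. All null values lay just below both heterozygote values, by a mean of -0.28 (SE 0.35, 95% interval -1.17 to 0.62, limma adjusted p = 0.999). Hoxb3, which acts in hindbrain and pharyngeal arches, had 5.89, 5.27 and 6.21 in null buds, against 4.77 and 4.88 in heterozygote buds. The groups did not overlap, and the mean was 5.79 ± 0.48 (SD, n = 3) in null and 4.82 ± 0.079 (SD, n = 2) in heterozygote buds. This difference of 0.96 (SE 0.43, 95% interval -0.15 to 2.08) had limma adjusted p = 0.943. The dimmer of its 2 probe sets differed by 1.14 in the same direction, with overlapping groups.

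Hoxb1, a gene of early gut and hindbrain, had 5.76, 5.05 and 4.59 in null buds, against 6.27 and 2.56 in heterozygote buds. The heterozygote arrays spanned all the null values, one of them above background and the other below it. The difference was 0.72 (SE 1.18, limma adjusted p = 0.999), and it was -1.13 without heterozygote replicate 2. Hoxa2, the selector of second pharyngeal arch identity, read 4.23, 4.62 and 4.61 in null buds, against 4.69 and 3.78 in heterozygote buds. Hoxa3, needed for thymus and parathyroid, read 2.52, 4.11 and 4.29 in null buds, against 3.90 and 4.26 in heterozygote buds. Both genes overlapped between genotypes. The Hoxa3 difference was -0.44, with signal above background on 4 arrays, and its other probe sets were above it on 0, 1 and 2. Hoxd3, a gene of the upper vertebrae, had 3.41, 3.14 and 5.62 in null buds, against 3.87 and 0.33 in heterozygote buds. It was above background on 3 arrays, and the heterozygote arrays again lay far apart. Hoxd1 was above background nowhere, so its separated groups carry no level.

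Of the central genes, 8 of 12 were above background on all arrays. Hoxb5, known in mouse for lung branching and the enteric nervous system, had 8.29, 8.28 and 9.06 in null buds, against 9.15 and 7.89 in heterozygote buds. Its means of 8.54 ± 0.45 (SD, n = 3) in null and 8.52 ± 0.89 (SD, n = 2) in heterozygote buds differed by 0.024 (SE 0.56, limma adjusted p = 0.999). The 95% interval of -1.41 to 1.46 leaves room for a change of over 2-fold in either direction. Its sign was negative with median centring (-0.13) and without normalisation (-0.17).

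Group 4 gave signal from all 3 measured paralogues, genes of the neck vertebrae. Hoxa4 had 6.93, 6.24 and 7.36 in null buds, against 6.66 and 6.10 in heterozygote buds. Hoxb4 had 4.95, 6.06 and 5.99 in null buds, against 5.67 and 4.86 in heterozygote buds. Hoxc4 had 5.88, 7.09 and 7.12 in null buds, against 6.75 and 6.07 in heterozygote buds. The groups overlapped for each of the 3, with differences of 0.46 (SE 0.49), 0.40 (SE 0.54) and 0.29 (SE 0.56) and limma adjusted p = 0.999 for all. The second probe sets of Hoxa4 and Hoxb4, also above background on all arrays, differed the other way, by -0.21 and -0.12, and the mean over both probe sets gave 0.12 and 0.14. Without heterozygote replicate 2 the Hoxb4 and Hoxc4 differences were -0.0013 and -0.054.

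In group 5, Hoxa5, a gene of foregut mesenchyme known for its part in lung and stomach, had 5.31, 5.45 and 6.51 in null buds, against 6.09 and 4.54 in heterozygote buds. Hoxc5 had 4.81, 5.10 and 5.35 in null buds, against 7.04 and 3.51 in heterozygote buds. Here the heterozygote arrays lay on either side of all null arrays, as they did for Hoxb1. Hoxb6, of the Hox6 set named above for pancreatic mesoderm, had 4.73, 5.91 and 6.00 in null buds, against 5.03 and 4.95 in heterozygote buds. Null replicate 1 was the lowest of the 5 arrays and the other null arrays were the highest (difference 0.56, SE 0.53, limma adjusted p = 0.995). Hoxc6, its paralogue, had 3.04, 4.22 and 4.34 in null buds, against 2.97 and 4.03 in heterozygote buds, and was above background on 3 arrays.

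Hoxd8, a trunk gene expressed in mesoderm and neural tube, had 5.28, 4.53 and 5.41 in null buds, against 4.77 and 4.47 in heterozygote buds. Its groups overlapped (difference 0.45, SE 0.44, limma adjusted p = 0.995), and its other probe set was also above background on all arrays. The other central genes were dim. Hoxb7 had 1.66, 3.01 and 3.50 in null buds, against 0.90 and 2.91 in heterozygote buds, and was above background on 1 null array. Hoxa7 and Hoxc8 were above background on none, with Hoxa7 between 0.67 and 1.33 on all 5 arrays.

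**Figure D2:**
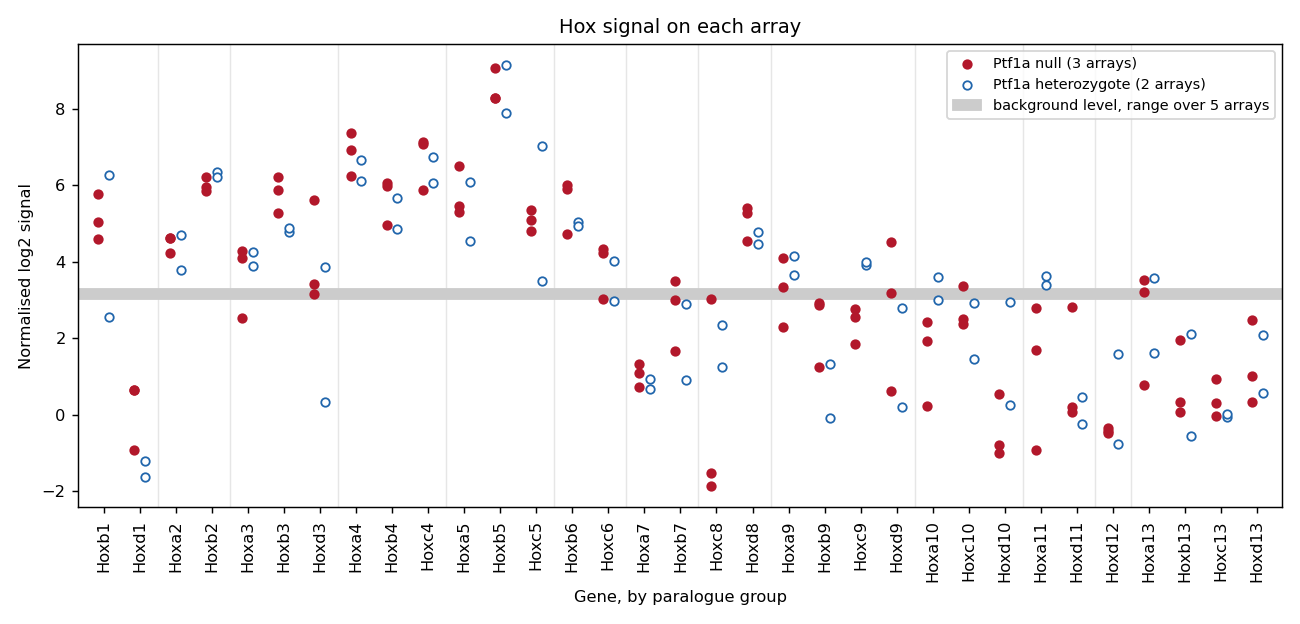
Normalised log2 signal of each of the 33 Hox genes, ordered by paralogue group, on 3 null arrays (filled points) and 2 heterozygote arrays (open points), with the range of background levels over the arrays as a grey band. Hoxb5 lies at 7.89 to 9.15 on every array, and the posterior genes lie mostly in or below the band.

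The posterior genes, which pattern lumbar and tail regions, limbs and hindgut, gave little signal. Of 14, 7 were above background on some arrays and 7 on none. The 7 never above it were Hoxb9, Hoxd10, Hoxd11, Hoxd12, Hoxb13, Hoxc13 and Hoxd13. Hoxc9, a gene of the thoracic region, had 1.85, 2.56 and 2.76 in null buds, all below background, against 3.90 and 4.0 in heterozygote buds, both above it. The means were 2.39 ± 0.48 (SD, n = 3) in null and 3.95 ± 0.071 (SD, n = 2) in heterozygote buds, so signal was at least 1.80-fold lower in null (limma adjusted p = 0.70). A fold written as at least sets the brighter genotype against background, or against the dimmer signal where that is higher, on each array of the dimmer genotype. It is a point estimate and not a confidence limit.

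Hoxa11, known for forearm, kidney and uterus, had 2.79, 1.70 and -0.91 in null buds, against 3.38 and 3.62 in heterozygote buds. It was thus above background in both heterozygote pools and no null pool, at least 1.32-fold lower in null (means 1.19 ± 1.91, n = 3, and 3.50 ± 0.17, n = 2, with SD; limma adjusted p = 0.975). Hoxa10, the neighbour of Hoxa11 and a gene of the lumbar region and uterus, had 1.92, 2.42 and 0.23 in null buds, against 3.60 and 2.99 in heterozygote buds. Only 1 of the 2 heterozygote arrays was above background, so no fold is given (limma adjusted p = 0.942), and its other probe set was above background on no array and differed by 1.56 the other way. Hoxa9 had 4.11, 3.34 and 2.28 in null buds, against 4.16 and 3.66 in heterozygote buds. Its groups overlapped (difference -0.67, SE 0.64, limma adjusted p = 0.995), and the difference was -1.10 without null replicate 1 and -0.19 without null replicate 3.

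Another 3 posterior genes were above background on 1 to 3 arrays: Hoxd9 on 2 null arrays and no heterozygote array, Hoxa13 on 2 null arrays and 1 heterozygote array, and Hoxc10 on 1 null array. Hoxd9 had 4.52, 0.61 and 3.19 in null buds, against 0.21 and 2.79 in heterozygote buds. Hoxa13, needed for hindgut and digits, had 0.79, 3.21 and 3.53 in null buds, against 3.59 and 1.61 in heterozygote buds. Hoxc10 lay between 2.38 and 3.37 in the 3 null pools, against 1.45 and 2.91 in heterozygote buds. For each of these 3 genes the highest and the lowest array differed by more than 1 log2 unit, and the groups overlapped.

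No Hox gene passed the test between genotypes. With limma, adjusted over all 45037 probe sets, 0 of 33 genes were called by the fit without a variance trend (0% of all probe sets) and 0 by the fit with a trended, robust variance (0.0178% of all probe sets). At an unadjusted p under 0.05, the untrended fit had 1 Hox gene, Hoxc9, and the trended fit also 1, Hoxb3, each 3.03% of the 33. Among all genes, 4.47% passed that mark in each fit. The groups did not overlap at 6 Hox genes (18.2%), near the 19.9% of all genes. In those, 2 (Hoxb3 and Hoxd1) were higher in null, as were 9.82% of all genes, and 4 (Hoxb2, Hoxc9, Hoxa10 and Hoxa11) lower, as were 10.1%.

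Of the 33 genes, 21 (63.6%) were higher in null, against 49.1% of all genes, and the median log2 difference was 0.29, against -0.012 over all genes. The median was 0.72 over the anterior genes (5 of 7 higher), 0.38 over the central genes (10 of 12 higher) and -0.070 over the posterior genes (6 of 14 higher). The 11 genes above background on all arrays differed by -0.28 to 0.96, and 0 of them by 2-fold or more. The other 22 ranged from -2.31 to 1.96, and 9 of them differed by at least 2-fold. Differences of 2-fold or more were thus seen in 27.3% of Hox genes, against 18.8% of all genes. Of the 9, 4 (Hoxd1, Hoxc8, Hoxb9 and Hoxd10) were above background on no array, so that theirs are differences between background values, and the other 5 on some arrays. Among the 11 genes with several probe sets, 6 had 1 sign at all of them, and 5 (Hoxa4, Hoxb4, Hoxc6, Hoxa9 and Hoxa10) had both signs. With values raised to background 15 of 33 were higher and the median was -0.060. That floor gives each of the 10 genes above background on no array the same negative difference, set by the background levels. The count and median under it therefore follow in part from the floor. With an offset of 16 the median was 0.071, and with the mean of all probe sets of a gene 0.14. Leaving out heterozygote replicate 2 brought the median over all Hox genes to -0.0013 and that of the anterior genes to -0.20, with 16 of 33 higher. Leaving out heterozygote replicate 1 gave 0.60 over all Hox genes.

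**Figure D3:**
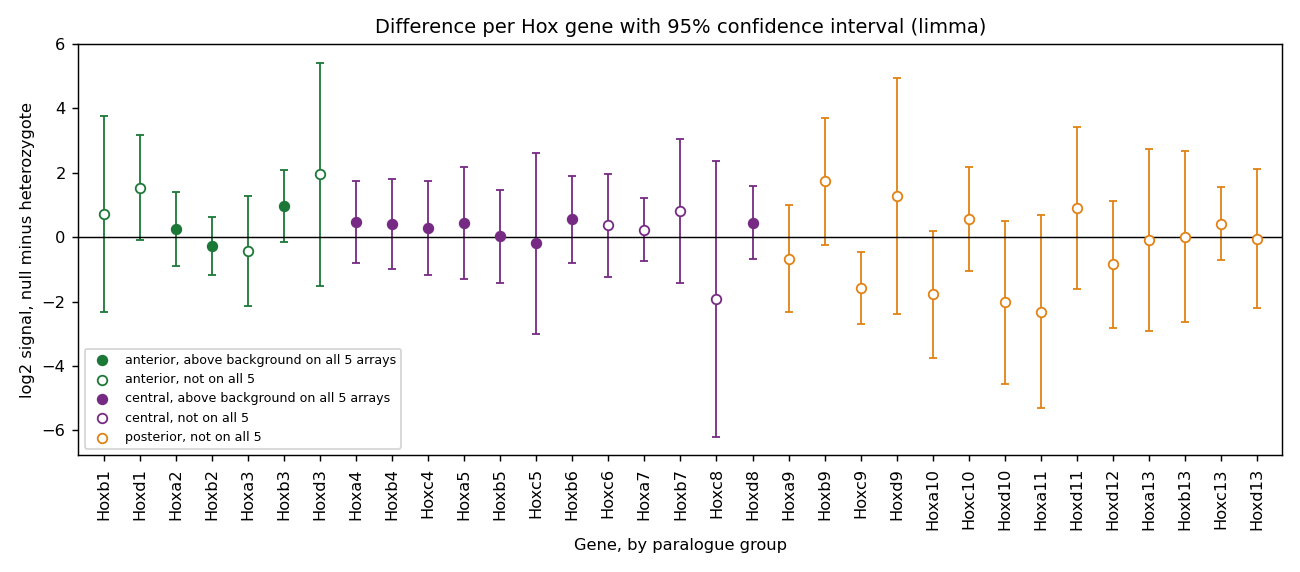
Difference in log2 signal, null minus heterozygote, of each Hox gene with its 95% confidence interval from limma, filled where the gene was above background on all 5 arrays and coloured by class. The filled points lie between -0.28 and 0.96, and only the interval of Hoxc9 leaves out 0 before adjustment.

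The spread within genotypes followed particular arrays. Among the 16 genes whose mean lay above background, heterozygote replicate 2 was the lowest array for 9 and null replicate 3 the highest for 9. Relative to each gene's mean over the arrays, their median was -0.26, -0.096 and 0.52 on null replicates 1 to 3, against 0.20 and -0.54 on heterozygote replicates 1 and 2. The 20 mesenchyme markers had medians of 0.61, 0.060 and 0.57 in null buds, against -0.076 and -0.53 in heterozygote buds. Heterozygote replicate 2 was thus lowest for both lists, while null replicate 1 was high for mesenchyme and low for Hox genes. The 11 bud epithelium markers had medians of 0.10, 0.14 and -0.21 in null buds, against -0.15 and 0.27 in heterozygote buds. For these markers heterozygote replicate 2 was the highest array. The 14 posterior Hox genes ran another way, at -0.23, -0.22 and -0.33 in null buds, against 0.23 and 0.27 in heterozygote buds, on signals mostly below background.

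Of the mesenchyme markers, 9 of 20 were above background on all arrays (57% of all genes were), among them Col3a1, Pdgfra and Barx1, and 1, Twist1, on none. The mean level of the 20 was 4.19 to 5.24 in null buds and 3.87 to 4.55 in heterozygote buds. Of them 17 were higher in null, against 49.1% of all genes, with 0 called. The groups did not overlap at 8 of the 20, against 19.9% of all genes. In the untrended limma fit 3 of the 20 had an unadjusted p under 0.05, against 4.47% of all genes. The 8 neural crest and glia markers, 5 of them above background throughout, had mean levels of 4.74 to 5.16 in null buds and 4.25 to 4.52 in heterozygote buds. Of them 5 were higher and 3 lower in null, with 0 called. The groups did not overlap at 3 of the 8, against 19.9% of all genes. An unadjusted p under 0.05 in the untrended limma fit was found for 3, against 4.47%. Of the 10 neural tube and neuron markers 5 (Nefm, Nefl, Dcx, Pax6 and Elavl4) were above background throughout, and Sox1 was above it nowhere. Their mean levels were 3.93 to 5.38 in null buds and 4.84 to 4.99 in heterozygote buds. The 11 bud epithelium markers had mean levels of 7.21 to 7.52 in null buds and 7.36 to 7.58 in heterozygote buds. Hox genes are active in mesenchyme, neural crest and spinal cord as well as in gut endoderm, and the part of these cells in the Hox signals was not tested.

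**Figure D4:**
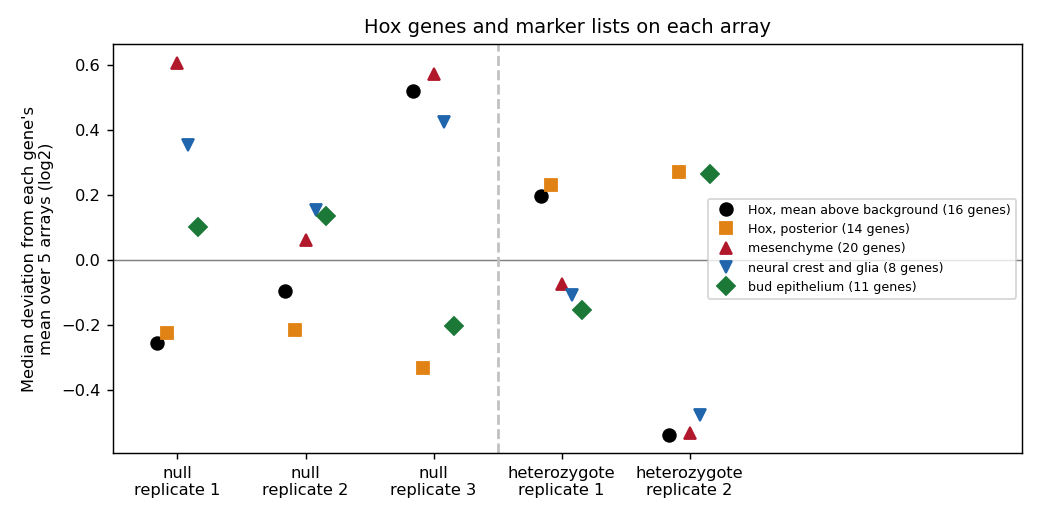
Median deviation, in log2 units, of Hox genes and marker lists from each gene's mean over the 5 arrays, with null arrays left of the dashed line and heterozygote arrays right of it. Heterozygote replicate 2 lies lowest for the Hox genes with mean above background (-0.54), mesenchyme (-0.53) and neural crest (-0.48). It lies highest for bud epithelium (0.27) and the posterior Hox genes (0.27).

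Partners of the Hox proteins were well represented in both genotypes. Of 8 measured TALE cofactors 7 were above background on all arrays, against 57% of all genes. Of the 8, 5 were higher and 3 lower in null (median difference 0.18, 0 called). Pbx2, a Hox cofactor, had 10.15, 10.21 and 10.21 in null buds, against 10.27 and 9.79 in heterozygote buds. Meis2, another cofactor, had 8.96, 8.89 and 9.14 in null buds, against 9.08 and 8.53 in heterozygote buds. Both were among the bright genes of these lists, and both had heterozygote replicate 2 as their lowest array; these 2 were named after their values were seen. Meis3 differed by 0.64 (SE 0.50, limma adjusted p = 0.991), with overlapping groups.

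Chromatin regulators that hold Hox clusters silent (Polycomb) or active (trithorax) were above background on all arrays for 16 of 18 members, against 57% of all genes. Of the 18, 11 were higher and 7 lower in null, with 0 called (median 0.11). Phc1, a Polycomb subunit, had means of 8.39 ± 0.27 (SD, n = 3) in null and 7.76 ± 0.27 (SD, n = 2) in heterozygote buds, without overlap (limma adjusted p = 0.991). Kmt2a, the trithorax methyltransferase that maintains Hox expression, had 7.24 ± 0.18 (SD, n = 3) in null and 6.73 ± 0.32 (SD, n = 2) in heterozygote buds (limma adjusted p = 0.991). Jarid2 and Ezh1, which act with Polycomb complex 2, differed by 0.36 and -0.35.

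Upstream regulators of Hox genes, mostly of retinoic acid signalling and the Cdx family, were dimmer. Only 4 of 17 measured were above background on all arrays, against 57% of all genes. Of the 17, 11 were higher and 6 lower in null (median 0.49), and 0 were called. Over the cofactors, regulators and chromatin genes together, 27 of 43 were higher in null (median 0.18), 6 had separate groups (against 19.9% of all genes) and 0 had an unadjusted p under 0.05 in the untrended limma fit (against 4.47%). The ParaHox genes are a sister cluster of Hox and include Pdx1 and the intestinal gene Cdx2. Pdx1 had 7.05, 7.32 and 7.13 in null buds, against 7.61 and 7.73 in heterozygote buds, a difference of -0.51 (SE 0.34, limma adjusted p = 0.991) without overlap. Cdx2 had 5.75, 6.25 and 3.29 in null buds, against 5.37 and 2.58 in heterozygote buds, with each genotype spread over more than 2 log2 units. Cdx1, Cdx4 and Gsx1 were above background on no array, and Gsx2 on 1.

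Among 17 measured regional factors of the gut and its mesenchyme, 12 were higher and 5 lower in null (median 0.18), and 0 were called by either fit. The groups did not overlap at 5 of the 17, against 19.9% of all genes. In the untrended limma fit 3 of the 17 had an unadjusted p under 0.05, against 4.47% of all genes. The foregut factors Sox2 and Hhex were above background on all arrays, and Nkx2-1, a lung and thyroid factor, on 2. Mnx1, a homeodomain factor of the dorsal bud outside the Hox clusters, had 5.11, 4.36 and 4.41 in null buds, against 7.31 and 7.30 in heterozygote buds (difference -2.68, SE 0.41, limma adjusted p = 0.369). The other regional factors with an unadjusted p under 0.05 were Nkx3-2 and Osr1. Both were higher in null, above background on 3 null arrays and 0 heterozygote arrays. The single genes of this list, like the single marker genes above, were named after their values were seen. No Hox gene above background on all arrays differed by as much as Mnx1.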

How the data were processed

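RNA of dorsal pancreatic buds was hybridised to Affymetrix mouse arrays (3 null, 2 heterozygote). The authors deposited a linear signal intensity for each probe set, and, per the submitters' processing notes, GCOS and RMA were used, with no version or role; of the background step nothing is recorded there. Intensities were put on a log2 scale without offset and quantile normalised. The 64 control probe sets were left out, and 45037 were tested with limma 3.58.1 in R 4.3.3 (lmFit, eBayes, genotype as sole term, two-sided, Benjamini-Hochberg, threshold 0.05). Functions were tested on simulated data. With 3 against 2 arrays no exact permutation p can be under 0.1, so none is given and precision is limited by the number of arrays. Of the tested probe sets, 34945 had 1 symbol, 932 several and 9160 none in the platform annotation; 34741 matched the RefSeq table by gene ID, with 0 names changed. The 3 probe sets annotated to 2 Hox genes and 5 of antisense Hox transcripts were not used.

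Values in every array are given for 16 members above background on all arrays of at least 1 genotype. Differences are given for the brightest 3 of each class among these 16 and those of lowest p, 12 in all. Others were named after their values were seen. Cofactor and regulator genes were named by lowest p, with the ParaHox genes. Members and lists were chosen with earlier results of these data known. Alternatives were other scalings, an offset, a floor, a higher background level, filters, probe set choice, variance trend, replicate block and arrays left out.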

Additional observations from a re-analysis of the deposited data

How the results depend on the processing

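No Hox gene and no cofactor or regulator gene was called by limma under any alternative run, among which the trended fit called 8 probe sets over the whole array, against 0 without the trend. Dim signal limits the posterior genes most, and with 1 heterozygote array left the fit assumes that it varies like the null arrays. With values raised to background the median Hox difference was -0.060, which is the difference between the mean background levels, and the anterior median 0.26. An offset of 16 gave an anterior median of 0.13. Without dim probe sets (above background on fewer than 2 arrays) 13 Hox genes were higher in null, of 20 left, and the posterior median was -0.67. Among the posterior genes left, Hoxc9 and Hoxa11 passed only through heterozygote arrays and Hoxd9 only through null arrays. That median therefore follows in part from the filter. With median centring the posterior median was -0.0061. The median over all probe sets was -0.0099 with quantile normalisation, -0.073 with median centring and -0.12 without normalisation.

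With an array left out, the median ranged from -0.0013 to 0.60 over all Hox genes, from -0.20 to 0.91 over anterior, from 0.050 to 0.62 over central and from -0.50 to -0.081 over posterior genes. Between 16 and 23 genes were higher in null, and 11 or 12 were above background on all arrays left. With all 5 arrays, that count was 9 with the highest control probe set as background and 9 with the mean of all probe sets of a gene. It was 10, of 32 genes left, without probe sets of suffix _s_at, _x_at or _a_at. Without heterozygote replicate 2 the trended fit, added after seeing the data, gave the same median of -0.0013 and 0 calls.

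Of 167 values of the 12 Hox genes under alternatives, 8 turned sign. These were Hoxb5 with median centring (-0.13), without normalisation (-0.17), with the replicate block (-0.23), without null replicate 3 (-0.23) and without heterozygote replicate 2 (-0.60), and Hoxb1 (-1.13), Hoxc4 (-0.054) and Hoxb4 (-0.0013) without heterozygote replicate 2. With an array left out these genes ranged from -0.60 to 0.65 (Hoxb5), -1.13 to 2.58 (Hoxb1), -0.054 to 0.70 (Hoxc4) and -0.0013 to 0.81 (Hoxb4). The other 8 kept their sign, at -0.38 to -0.19 (Hoxb2), 0.75 to 1.23 (Hoxb3), 0.18 to 0.76 (Hoxa4), 0.33 to 0.96 (Hoxb6), 0.28 to 0.72 (Hoxd8), -1.10 to -0.19 (Hoxa9), -1.75 to -1.29 (Hoxc9) and -3.11 to -1.26 (Hoxa11). The cause was not tested. Whether the replicate numbers pair the samples could not be told. Deviations of same-numbered arrays correlated at -0.017 and 0.0080, but the deviations of the 2 heterozygote arrays mirror each other. With the replicate number as a block the Hox median was 0.19, 21 genes were higher in null and 0 were called. The pair-matched fit thus rests on replicates 1 and 2.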

Other observations

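Genes that flank the Hox clusters were detected more often than the posterior Hox genes inside them. Of 14 measured neighbours, 10 were above background on all 5 arrays, against 57% of all genes. Among them were Skap2 and Hibadh beside the Hoxa cluster, Skap1 beside Hoxb, Cbx5 and Smug1 near Hoxc, and Mtx2 and Lnpk beside Hoxd. In null buds 8 of the 14 neighbours were higher and 6 lower (median 0.033, 0 called by limma). Evx1, a homeobox gene at the posterior end of the Hoxa cluster, was above background on 1 array, and Evx2, its counterpart at Hoxd, on 3. The neighbours and markers named here were picked after their values were seen.

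Among markers of other cells, 5 of 7 endothelial and all 5 measured erythroid genes were above background on every array, against 57% of all genes. The erythroid genes all read lower in null (5 of 5, median -0.81), and 3 of 7 endothelial genes read higher (median -0.30), with 0 called in either list. Of 5 mesothelial markers 0 were above background throughout. Wt1 and Aldh1a2 were above it on 4 arrays and below it on heterozygote replicate 2 (-0.49 and 2.26). Upk1b and Upk3b were above it on 1 array each, and Msln nowhere. Shh was the sole measured notochord marker and was above background on 3 arrays.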
